A study of Mus musculus with 14 samples.

Results

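The comparison described here sets mouse cells collected at day 32 of a chemical reprogramming course (D32, n = 3 libraries) against cells of the same course at day 18 (D18, n = 3). These 6 libraries, out of 14 mouse libraries in 5 groups, were chosen by their labelled day, and 17899 genes of 55291 symbols had enough counts to be tested between them. RNA was taken as total RNA and sequenced in pairs of 150-base reads. All cells carried the C57BL/6J label and traced back to embryos at E13.5, from which the starting mouse embryonic fibroblasts (MEF) were made. No transgene is named for either group. D18 cells, labelled a reprogramming intermediate, were in the reprogramming medium M7, whose base was Neurobasal with DMEM/F12/GlutaMAX, N2, B27 lacking vitamin A, BSA and nonessential amino acids. Its added agents were the growth factor bFGF, the GSK3 inhibitor CHIR-99021, LDN193189 and A 83-01, which block BMP and TGF-beta receptors, CKI-7, an inhibitor of casein kinase, the Hedgehog agonist Hh-Ag1.5, BMS-345541, which inhibits IKK, and RG108, which inhibits DNA methyltransferases. D32 cells, labelled ciRPE, were in the differentiation and maturation medium M3: DMEM/F12/GlutaMAX with knockout serum replacement, nonessential amino acids and 2-mercaptoethanol, to which nicotinamide, retinoic acid, Activin A and the ROCK inhibitor Y27632 were added. Day and medium changed together between the groups, so time and each agent cannot be told apart. Cells for RNA were scraped from places in the dish where induction looked successful, so each library is a selection by eye. The labels do not say that replicates came from separate embryos or cultures, and p-values then measure only the spread between these libraries, which may be technical. A further group, P-RPE (n = 2), labelled RPE with no treatment and with E13.5 mouse embryos as its tissue, gives a reference level for the genes described. Levels are also given for the starting MEF (n = 3) and for cells at day 7 (D7, n = 3), which were in M7; the labels of the MEF libraries name M7 as their treatment too.

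The retinal pigment epithelium (RPE) is a single sheet of pigmented cells behind the photoreceptors. It turns all-trans retinol back into 11-cis retinal for the photopigments in a series of steps called the visual cycle, absorbs stray light with melanin, takes up shed photoreceptor outer segments, and moves ions, lactate and water between the retina and the blood. In the embryo it arises from the optic vesicle, an outgrowth of the forebrain, beside a mesenchyme that is derived largely from neural crest.

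The 6 libraries held between 34560073 and 38151106 counts, so that 1 count was worth 0.025 to 0.0285 CPM (counts per 1000000 of the scaled library size), and a gene with no count in a library could be as high as 0.0751 to 0.0855 CPM. Replicates of D18 differed by over 2-fold at 455 to 670 genes a pair and replicates of D32 at 152 to 247, against 4405 to 5131 genes between a D18 and a D32 library. One D32 library stood apart by its sex-linked genes. Ddx3y, on the Y chromosome, was at 65.6, 8.33 and 55.4 CPM in D32 replicates 1, 2 and 3 against 15.1, 14.6 and 10.7 CPM in the D18 replicates. Its mean in D32 replicates 1 and 3 was 7.26 times that in replicate 2, and this ratio was 8.61 for Eif2s3y, 9.05 for Uty and 5.37 for Kdm5d. Xist, the RNA of the inactive X, ran the other way, at 171, 346 and 139.8 CPM. Replicate 2 of D32 also had 1.45% of its counts from mitochondrial genes, against 3.08% and 3.39% in the other D32 libraries and 1.64% to 2.26% at D18. None of these 5 sex-linked genes passed the test between the days, and 4 passed, higher at D32, when D32 replicate 2 was left out.

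Between day 18 and day 32, 9496 of 17899 genes passed at an adjusted p under 0.05 (Benjamini-Hochberg, quasi-likelihood test of edgeR), which is 53.1% of those tested: 4852 were higher at D32 (27.1%) and 4644 lower (25.9%). By more than 2-fold, 2044 genes were higher (11.4%) and 2088 lower (11.7%). Without D32 replicate 2 the counts at any fold were 4797 and 4719. The libraries of the groups did not overlap for 11232 genes, or 62.8%. With this many genes called, a gene list is read below by its count in each direction and its median log2 change (0.03 over all genes tested, with 5% of genes below -2.67 and 5% above 3.29), and the lists were not tested as sets. Across the lists, members of the visual cycle, melanin, endothelial, macrophage, periocular and mitosis lists were mostly higher at D32, and those of the astrocyte, motile cilium, neural progenitor, neural tube patterning and Hox lists mostly lower. List members with at most 3 counts over either group passed the count filter only through the other group. Their direction was thus fixed by the filter, and they add no separate support to the counts and medians of their lists. In these bulk libraries, fewer cells of a type and less RNA per cell cannot be told apart.

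**Figure D1:**
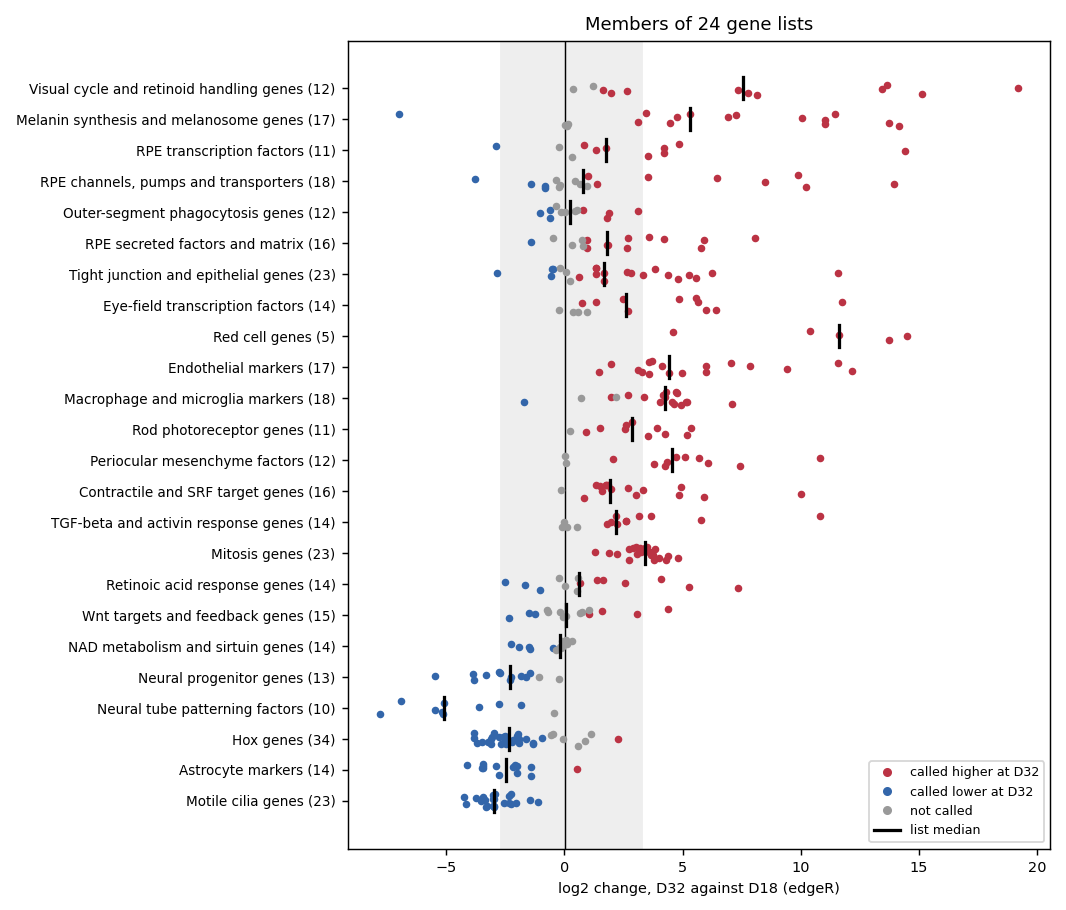
Log2 change from D18 to D32 of the tested members of 24 gene lists, each point a gene (red called higher, blue called lower, grey not called), with the list median as a black bar and the shaded band holding the middle of all genes tested (-2.67 to 3.29). The visual cycle list (median 7.57) and the red cell list (median 11.63) lie to the right of the band, and the neural tube patterning list (median -5.11) lies to its left. Most red cell genes drawn had no count at D18, so the count filter fixed their direction.

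The visual cycle genes rose from little or nothing. Of 12 genes for retinoid handling, 10 were higher at D32, 0 lower and 2 did not pass, with a median log2 change of 7.57, and their summed level went from 290 to 312 CPM in the D18 libraries to between 4768 and 9390 CPM in the D32 libraries. Rgr, the opsin-like photoisomerase of the RPE, was at 0.169, 0 and 0 CPM in the D18 replicates and 3019.9, 2018 and 1382 CPM in the D32 replicates, a log2 change of 15.15 ± 0.73 (SE; edgeR adjusted p = 9.54e-07). Rgr had 6 counts in all at D18, and without D18 replicate 1 the fitted change was 19.30. Rpe65, the isomerohydrolase that makes 11-cis retinol (chr3:159599175-159625321, GRCm38), was at 0.0562, 0 and 0.0570 CPM at D18 and 718, 317 and 329 CPM at D32. For both genes every D32 library lay far above every D18 library, and replicate 1 was the highest of the D32 libraries. Lrat, which esterifies retinol and so supplies the substrate of Rpe65, had 2 counts over the D18 libraries and was at 436, 179.9 and 217 CPM at D32, a ratio of 15161 with a 95% counting interval of 4197 to 125195. Rlbp1, the carrier of 11-cis retinoids, was not silent at D18: it was at 1.91, 2.16 and 2.74 CPM there and 872, 616 and 433 CPM at D32, a log2 change of 8.14 ± 0.34 (SE; edgeR adjusted p = 3.18e-07). Stra6, the retinol uptake receptor, was at 0.562, 2.56 and 1.17 CPM at D18 and 298, 254 and 157 CPM at D32 (log2 change 7.36, and 8.09 without D18 replicate 2). The groups did not overlap for either gene. Ttr, the plasma carrier of retinol-binding protein and thyroxine, had no count in any D18 library and was at 2621, 2074 and 1428 CPM at D32, at least 73914-fold higher against a floor of 3 counts over the D18 libraries. Lrat and Ttr passed the count filter only through D32, which fixed their direction. The genes already present at D18 moved least: Rdh5, the 11-cis retinol dehydrogenase, changed by 2.63 ± 0.23 (log2, SE), and the retinol dehydrogenase Rdh10 by 1.98. Rbp4, which carries retinol in plasma, and Rdh11 did not pass the test (edgeR adjusted p = 0.0529 and 0.145).

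Melanin genes showed the same step from near 0, while some genes of melanosome transport were already present at D18. Of 17 genes of melanin synthesis and melanosomes, 13 were higher at D32, 1 lower and 3 did not pass, with a median log2 change of 5.32. The 13 include Tyr, Dct, Slc45a2 and Oca2, which passed the count filter only through D32, so the filter fixed their direction. The sequences of the 250 bases before the transcription start are shown for the 3 melanin enzymes, since these genes rose together and MITF, the pigment cell regulator, is known to bind CATGTG and CACGTG in pigment gene promoters. They are RefSeq sequences of build GRCm38.p6 on the gene's own strand, 5′ to 3′, for Tyr chr7:87493513-87493762 (minus strand), Tyrp1 chr4:80833963-80834212 (plus strand) and Dct chr14:118052247-118052496 (minus strand), with the motif in capitals.
Tyr: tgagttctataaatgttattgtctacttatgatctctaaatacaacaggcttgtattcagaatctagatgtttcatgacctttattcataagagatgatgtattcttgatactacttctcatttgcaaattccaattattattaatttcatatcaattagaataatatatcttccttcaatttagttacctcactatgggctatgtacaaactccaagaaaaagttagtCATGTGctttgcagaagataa
Tyrp1: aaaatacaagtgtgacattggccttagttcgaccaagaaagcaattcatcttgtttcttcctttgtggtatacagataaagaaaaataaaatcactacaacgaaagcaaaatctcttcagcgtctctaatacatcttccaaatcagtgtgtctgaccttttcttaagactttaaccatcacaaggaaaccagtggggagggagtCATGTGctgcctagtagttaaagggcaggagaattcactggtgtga
Dct: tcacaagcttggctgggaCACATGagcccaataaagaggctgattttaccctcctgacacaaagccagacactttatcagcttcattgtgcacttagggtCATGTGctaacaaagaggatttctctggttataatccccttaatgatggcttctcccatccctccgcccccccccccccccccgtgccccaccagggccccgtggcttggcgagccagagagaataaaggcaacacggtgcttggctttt
Counted back from the start site, with the last base shown at -1, the motif begins at -21 in Tyr and -46 in Tyrp1, and Dct holds it as CACATG at -232 and as CATGTG at -150. RefSeq gave promoters for 11 of the 17 genes (15 promoters). CATGTG or its reverse complement CACATG was in 7 of these 15 promoters, 1 of each of 7 genes, among them Myo7a, which was not called, and in 4025 of all 32851 promoters of that length (12.3%). CACGTG, its own reverse complement, was in 4 of the 15, among them that of Slc24a4, which fell, and in 6.02% of all promoters. These are matches of letters in a window and were not tested as binding sites.

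Tyr, tyrosinase, which starts melanin synthesis, had no count at D18 and was at 62.8, 30.6 and 44.3 CPM at D32, at least 1666-fold higher against a floor of 3 counts over the D18 libraries. Dct, dopachrome tautomerase, had 2 counts over the D18 libraries and was at 505, 259.6 and 419 CPM at D32, a ratio of 21457 (95% counting interval 5939.6 to 177184). Tyrp1, which acts after Dct in eumelanin synthesis, was at 0.0843, 0.0533 and 0 CPM at D18 and 184, 102 and 133 CPM at D32 (log2 change 11.46, and 12.14 without D18 replicate 1). All 3 enzymes were lowest in D32 replicate 2 and highest in D32 replicate 1. The fibril protein Pmel and the cation channel Trpm1 started from a measurable level. Pmel was at 5.36, 3.36 and 4.84 CPM at D18 and 146, 117 and 109 CPM at D32, a log2 change of 4.78 ± 0.22 (SE; edgeR adjusted p = 3.83e-07), and Trpm1 changed by 5.32 ± 0.33 (log2, SE). Slc45a2 and Oca2, which set melanosome pH, rose at least 254-fold (no count at D18) and by a ratio of 1187 (95% counting interval 406 to 5756). Of the transport genes, Mlph (log2 change 6.93), Rab27a (3.45) and Rab38 (3.12) rose. Myo7a, the motor that moves melanosomes in the RPE, did not pass: it was at 138, 149 and 117 CPM at D18 and 118, 160.4 and 139 CPM at D32, and these ranges overlap. The 1 member that fell, the potassium-dependent sodium-calcium exchanger Slc24a4, had the lowest log2 change of all called genes with a D18 mean of at least 10 CPM (chr12:102128733-102267091, GRCm38). Slc24a4 was at 71.6, 67.2 and 64.5 CPM at D18 and 0.250, 0.791 and 0.522 CPM at D32, a log2 change of -7.02 ± 0.31 (SE; edgeR adjusted p = 3.63e-07), while its relative Slc24a5 of the melanosome rose by 4.45.

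Among transcription factors of the RPE, Otx2 and Lhx2 rose far more than Mitf. Of 11 factors tested (of 12 listed), 8 were higher at D32, 1 lower and 2 did not pass, with a median log2 change of 1.77. Otx2, the homeobox factor that specifies RPE with MITF (chr14:48657677-48673819, GRCm38), had no count at D18 and was at 104, 57.1 and 58.2 CPM at D32, at least 2649.6-fold higher against a floor of 3 counts over the D18 libraries. Lhx2 rose by 4.87 ± 0.35 (log2, SE), and Otx1, a relative of Otx2, by 3.52. Mitf was at 16.1, 9.90 and 10.0 CPM at D18 and 28.0, 15.2 and 20.6 CPM at D32, a log2 change of 0.83 ± 0.27 (SE; edgeR adjusted p = 0.0257). The Mitf ranges overlap: D18 replicate 1 was above D32 replicate 2. Sox9 fell from 344, 402 and 549 CPM to 59.9, 63.3 and 48.5 CPM, a log2 change of -2.91 ± 0.21 (SE; edgeR adjusted p = 3.91e-06). Pax6, shared by RPE, neural retina and neural tube, was at 39.9, 39.8 and 45.5 CPM and 40.1, 21.4 and 45.2 CPM and did not pass (edgeR adjusted p = 0.453).

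Of 14 eye-field and optic vesicle factors tested (of 15), 10 were higher, 0 lower and 4 did not pass, with a median log2 change of 2.59. Rax, among the earliest eye-field genes, was at 0, 0.0533 and 0.171 CPM at D18 and 3.98, 2.77 and 4.38 CPM at D32, a log2 change of 5.58 ± 0.65 (SE; edgeR adjusted p = 7.41e-05). Six3, a forebrain and eye factor, was at 0.0562, 0.0533 and 0.513 CPM and 23.5, 16 and 13.7 CPM (log2 change 6.41, and 8.26 without D18 replicate 3). Nr2e1, also known as Tlx, of forebrain and retina progenitors, had no count at D18 and was at 14.6, 11.7 and 8.17 CPM at D32. Every D32 library lay above every D18 library for these 3 genes, all of which stayed under 25 CPM. Pax2 of the optic stalk and Vax2 of the ventral eye did not pass the test.

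Transport genes of the RPE split. Of 18 channels, pumps and transporters, 8 were higher, 4 lower and 6 did not pass, with a median log2 change of 0.80. Slc16a8, the basal lactate exporter MCT3 of the RPE, was at 2.98, 2.96 and 1.57 CPM at D18 and 262, 263 and 141 CPM at D32, a log2 change of 6.47 ± 0.36 (SE; edgeR adjusted p = 1.80e-06). Slc22a8, an organic anion transporter, had no count at D18 and was at 65.6, 52.0 and 40.0 CPM at D32, and the taurine transporter Slc6a6 rose by 3.55 ± 0.27 (log2, SE). Kcnj13, the apical potassium channel Kir7.1, went from 2 counts over the D18 libraries to 28.2, 18.6 and 15.9 CPM. Its value is uncertain, since 49.1% of its exon bases are shared with Gigyf2. Best1, the basolateral bestrophin of mature RPE, did not pass: it was at 1.69, 1.71 and 1.25 CPM at D18 and 1.78, 1.13 and 1.17 CPM at D32 (edgeR adjusted p = 0.677), against a mean of 2.29 CPM in P-RPE. Atp1b2, the sodium pump subunit of glia, fell from 4824, 5042 and 4007 CPM to 369.5, 311 and 329 CPM, a log2 change of -3.78 ± 0.20 (SE; edgeR adjusted p = 7.58e-07), and Atp1b1, the beta subunit of epithelia, changed by -0.81.

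Of 12 genes for the uptake of outer segments, 4 were higher, 3 lower and 5 did not pass, with a median log2 change of 0.23, close to the counts over all genes tested. Mertk, the receptor kinase that triggers engulfment, was at 7.61, 5.07 and 8.83 CPM at D18 and 80.1, 58.9 and 46.5 CPM at D32, a log2 change of 3.11 ± 0.26 (SE; edgeR adjusted p = 1.02e-05). The bridging protein Mfge8 and the integrin subunit Itgb5, which bind shed segments, rose by 1.88 and 1.81 on the log2 scale. The ligand Gas6 and the lysosomal Ctsd and Lamp1 did not pass. Of 16 secreted factors, 11 were higher, 1 lower and 4 did not pass (median 1.82), with 2 lower when D18 replicate 3 was left out. Bmp4 was at 5.48, 4.75 and 3.90 CPM at D18 and 70.8, 97.1 and 94.7 CPM at D32, a log2 change of 4.22 ± 0.20 (SE; edgeR adjusted p = 4.32e-07), and Efemp1, a matrix protein of the RPE basement membrane region, rose by 2.69 ± 0.42. Serpinf1, which encodes the neurotrophic factor PEDF, and Vegfa did not pass (edgeR adjusted p = 0.160 and 0.541). Of 23 junction and epithelial genes, 16 were higher, 4 lower and 3 did not pass (median 1.67), with 2 lower when D32 replicate 3 was left out. Cdh1 (log2 change 4.37), Cldn1 (5.28) and the keratin Krt8 (3.84) rose, as did Cldn19, a claudin of RPE tight junctions, from 0.477, 0.507 and 0.769 CPM to 6.26, 2.95 and 8.43 CPM. Crb2, an apical polarity protein of neuroepithelium, fell by 2.87 on the log2 scale, and the junction protein Ocln did not pass.

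**Figure D2:**
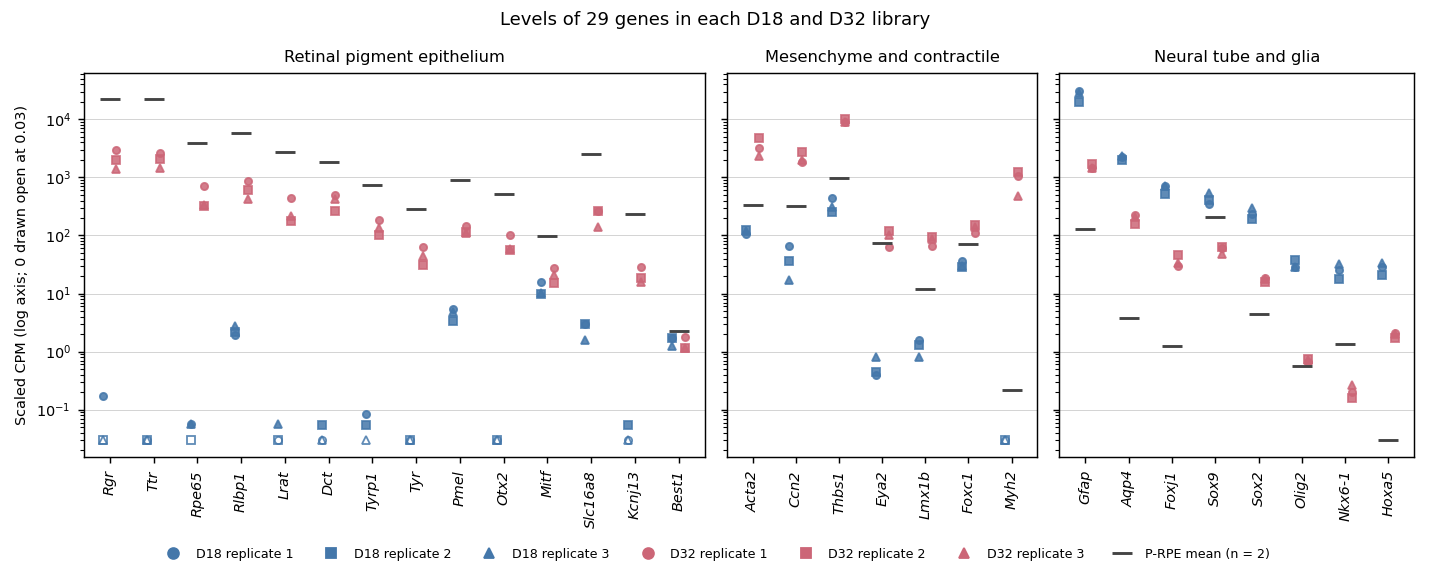
Level of 29 genes in each D18 library (blue) and D32 library (red), in scaled CPM on a log axis with 0 drawn open at 0.03, and the P-RPE mean as a grey dash; marker shape gives the replicate. The left panel shows RPE genes, several from 0 or near it at D18 and others, such as Rlbp1, Pmel and Mitf, from a measurable level. At D32 most of the genes drawn there lie under the P-RPE dash, the D18 and D32 ranges of Mitf overlap, and Best1 was not called. The middle panel shows mesenchymal and contractile genes above D18 in all 3 D32 libraries. The right panel shows neural and glial genes below D18.

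Set against P-RPE, the visual cycle genes that rose sat in a narrow range of shares of that reference. The 10 visual cycle genes called higher were at 8.62% to 13.1% of the P-RPE mean at D32 (median 10.5%): Rgr was at 9.63%, Ttr at 9.05%, Rpe65 at 11.7% and Lrat at 10.2%. The 13 melanin genes called higher were at 9.31% to 39.7% (median 16.3%), with Tyr at 16.2%. The 8 RPE transcription factors called higher were at 13.8% to 161% (median 56.0%), and Mitf was at 22%. Other RPE lists spread more widely. The 11 secreted factors called higher were at 4.02% to 1607% (median 34.0%), with Efemp1 the highest. The 4 uptake genes were at 23.5% to 312% (median 204%) and the 16 junction and epithelial genes at 9.37% to 4760% (median 16.9%). The 8 channels and transporters were at 8.71% to 104% (median 17.0%). P-RPE took no part in the test, and its libraries are set beside D32 as levels only.

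Genes of other cell types rose beside the RPE genes, several to a like share of P-RPE. All 5 red cell genes tested (of 12) were called higher: Hbb-bs, an adult beta globin, had no count at D18 and was at 56.6, 61.6 and 111 CPM at D32, and Hba-a1 was at 31.5, 42.1 and 64.9 CPM after no count. Reads of Hbb-bs and Hba-a1 can be split with near-identical copies. Hbb-bs, Hbb-bt, Hba-a1 and Hba-a2 had no count at D18 and passed the count filter only through D32. Their direction was thus fixed by the filter, and the share of red cell genes called higher is no separate support. The red cell list summed to 0.393 to 0.720 CPM at D18, 103 to 204 CPM at D32 and 975 to 1780 CPM in P-RPE, and its members at D32 were at 8.90% to 12.6% of the P-RPE mean (median 9.83%). The embryonic globins Hbb-y, Hbb-bh1 and Hba-x had no count in any of the 6 libraries. All 17 endothelial markers were called higher (median log2 change 4.43), with a sum of 18.5 to 37.0 CPM at D18, 486 to 699 CPM at D32 and 1676 to 2072 CPM in P-RPE. Emcn, an endothelial sialomucin, had 2 counts over the D18 libraries and was at 109, 107 and 82.4 CPM at D32, and Pecam1 was at 0.0562, 0.213 and 0.285 CPM at D18 and 14.2, 11.7 and 10.1 CPM at D32. This list too holds members, Emcn among them, that passed the count filter only through D32. Of 18 macrophage and microglia markers, 15 were higher, 1 lower and 2 did not pass (median 4.27), 8 were higher with no filter on low counts, and the median was 6.30 without D18 replicate 3. For Csf1r, the receptor of the macrophage growth factor, that library held most of the D18 signal: it was at 0.169, 0.800 and 5.33 CPM at D18 and 97.0, 79.6 and 53.7 CPM at D32 (log2 change 5.2, and 7.28 without D18 replicate 3). About 15.1% of the exon bases of Csf1r are shared with Hmgxb3. The macrophage sum was 40.2 to 88.8 CPM at D18, 488 to 920 CPM at D32 and 2718 to 2912 CPM in P-RPE. Of 7 MHC class II genes tested, 5 were higher and 0 lower. Cd74, the class II chaperone, was at 0.169, 0.213 and 0.171 CPM at D18 and 64.2, 75.2 and 37.7 CPM at D32, at 17.1% of P-RPE.

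Rod genes rose as well: 10 of 11 tested were higher and 0 lower, with a sum of 24.8 to 29.7 CPM at D18, 57.7 to 100 CPM at D32 and 1487 to 3494 CPM in P-RPE. Gnat1, rod transducin, was at 0.281, 0.427 and 0.342 CPM at D18 and 1.05, 7.81 and 11.7 CPM at D32 (log2 change 4.27, and 3.65 without D32 replicate 3), so the rise lay mainly in D32 replicates 2 and 3. Of 11 choroid plexus markers tested, 8 were higher and 1 lower (median 5.92). This list shares members with the RPE lists above, among them Ttr of the visual cycle list and Otx2, so its count is not separate from theirs. Ptgds, the prostaglandin synthase abundant in choroid plexus and RPE, was at 9.41, 9.76 and 11.9 CPM at D18 and 3333, 2498 and 1855 CPM at D32, which is 10.0% of its P-RPE mean. The choroid plexus markers Kl and Htr2c had too few counts to be tested.

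The libraries in which these genes peaked differed by list. Of the genes called higher, D32 replicate 1 was the highest library for 9 of 10 visual cycle genes, 12 of 13 melanin genes and 8 of 8 choroid plexus genes. Ttr is counted in both the visual cycle and the choroid plexus list. Replicate 3 was the highest for 4 of 5 red cell genes and 8 of 10 rod genes, and replicate 2 for 5 of 5 class II genes. Endothelial genes peaked in replicate 1 (8 of 17) or replicate 2 (9 of 17). The part of the blood, vessel, macrophage and rod markers in the RPE results was not tested.

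**Figure D3:**
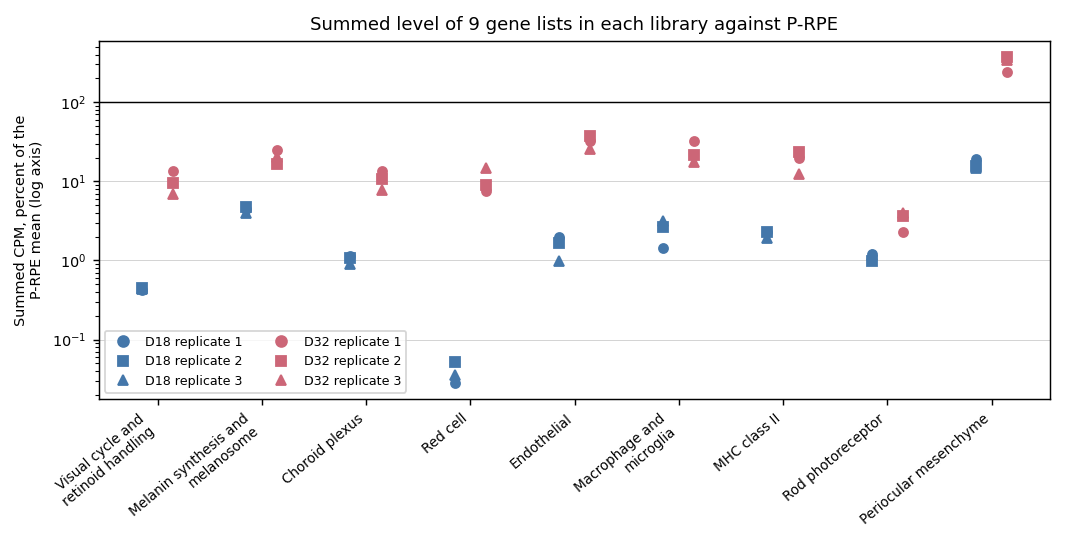
Summed CPM of 9 gene lists in each D18 (blue) and D32 (red) library as a percent of the P-RPE mean sum, on a log axis, with the line at 100%. The visual cycle, melanin, red cell, endothelial and macrophage sums of the D32 libraries lie between D18 and the line, and the periocular mesenchyme sum lies above it.

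A group of 36 genes had at most 3 counts over the D18 libraries and at least 5 CPM at D32. Of these, 24 were at 5% to 20% of the P-RPE mean, 1 below 5% (Rbp3, the interphotoreceptor retinoid carrier), 6 between 20% and 100% and 5 above 100%, with a median of 13.7%. D32 replicate 1 was the highest library for 24 of them, replicate 3 for 8 and replicate 2 for 4. Besides the RPE genes they include Cltrn, the kidney amino acid transport partner collectrin (111, 45.0 and 54.5 CPM at D32), the sulfotransferase Sult1c1, Tmem72, Rd3l and the epithelial factor Hnf4a, each with no count at D18. Cltrn was at least 2552-fold higher at D32 and Hnf4a at least 303-fold. The 5 genes above their P-RPE level were Myh2, Gm11377, 1700018A04Rik, Milr1 and Slc26a4.

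**Figure D4:**
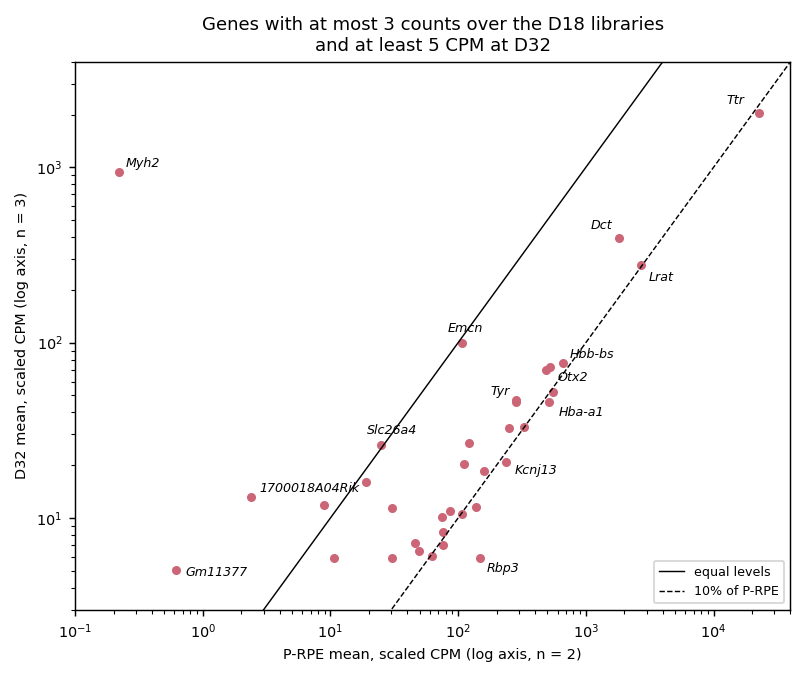
Mean level at D32 (n = 3) against mean level in P-RPE (n = 2), both in scaled CPM on log axes, for the 36 genes with at most 3 counts over the D18 libraries and at least 5 CPM at D32; the solid line marks equal levels and the dashed line 10% of P-RPE. Most of the genes follow the dashed line, and Myh2 lies far to the left of it.

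The glial and neural tube program of D18 fell. All but 1 of the 14 astrocyte markers were called lower at D32 (13 of 14, median log2 change -2.47), and their sum went from 39662 to 56257 CPM at D18 to 6480 to 7310 CPM at D32. Gfap, the astrocyte filament and the most counted gene of each D18 library, was at 31178, 20177 and 28350.3 CPM at D18 and 1444, 1709.7 and 1461 CPM at D32, a log2 change of -4.11 ± 0.27 (SE; edgeR adjusted p = 2.14e-06). Aqp4, the astrocyte water channel, was at 2206, 1975 and 2311 CPM and 228, 155 and 211 CPM, and the glutamate transporter Slc1a3 changed by -3.45 ± 0.18 (log2, SE). Each D32 library still held more Gfap than the P-RPE mean of 130.4 CPM. The sum of the astrocyte list went the other way, at 24780 to 24949 CPM in P-RPE, above every D32 library. The 1 member called higher was Glul, glutamine synthetase, which RPE and Müller cells also express. Glul was at 336, 276 and 274 CPM and 515, 356 and 429 CPM, and its call was lost without D18 replicate 2 or 3 or without D32 replicate 1 or 3 (log2 change 0.51, 0.50, 0.41 and 0.56).

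Of 13 neural progenitor genes tested, 0 were higher, 11 lower and 2 did not pass (median -2.32). Sox2, the progenitor factor, was at 238, 194 and 303 CPM at D18 and 18.7, 16 and 17.7 CPM at D32, a log2 change of -3.81 ± 0.19 (SE; edgeR adjusted p = 5.89e-07). Its relative Sox1 changed by -3.32 and the intermediate filament Nes by -2.32. Neuron markers split between falls and no call, at 8 lower and 7 not called of 15 (2 called higher without D18 replicate 2, and 1 with a replicate block, a fit over all 14 libraries, DESeq2 or limma-voom), with Dcx, of migrating neurons, falling to 2 counts over the D32 libraries. Motile cilium genes fell as a whole list. All 23 tested were called lower (median -2.97), and their sum went from 1088 to 1779 CPM at D18 to 158 to 164 CPM at D32. Foxj1, the regulator of motile cilia found in ependymal cells, was at 718, 524 and 708 CPM at D18 and 30.4, 45.2 and 34.2 CPM at D32, a log2 change of -4.15 ± 0.22 (SE; edgeR adjusted p = 7.47e-07).

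Patterning factors of the neural tube and Hox genes also fell. Of 10 neural tube patterning factors tested (of 14), a list of dorsal, intermediate and ventral factors, 9 were lower and 0 higher, with a median of -5.11, against -1.44 over all genes called lower. Nkx6-1, of ventral progenitors (chr5:101658139-101664996, GRCm38), was at 25.1, 18.14 and 32.8 CPM at D18 and 0.200, 0.158 and 0.261 CPM at D32, a log2 change of -6.92 ± 0.33 (SE; edgeR adjusted p = 4.83e-07). Olig2, of motor neuron and oligodendrocyte progenitors, was at 28.8, 37.9 and 29.1 CPM and 0.651, 0.738 and 0.731 CPM, a log2 change of -5.49 ± 0.22 (SE; edgeR adjusted p = 2.86e-07). Nkx2-2, of the most ventral progenitors, had 1 count over the D32 libraries, after 3.90, 2.51 and 1.54 CPM at D18. For each of these 3 genes the D18 and D32 libraries lay far apart. Of 34 Hox genes tested, which mark position from the hindbrain back, 27 were lower, 1 higher and 6 did not pass (median -2.33). Their sum went from 250 to 319 CPM at D18 to 53 to 56.9 CPM at D32, and was 0.616 to 0.727 CPM in P-RPE. In the starting MEF this sum was 496 to 521 CPM, above D18. Hoxa5 was at 28.4, 20.7 and 33.2 CPM at D18 and 2.05, 1.69 and 2.04 CPM at D32, a log2 change of -3.83 ± 0.23 (SE; edgeR adjusted p = 1.55e-06). The 1 Hox gene called higher, Hoxb13, stayed under 2 CPM, at 0.901, 1.74 and 0.887 CPM. Of 14 neural crest, melanocyte and Schwann genes, 9 were lower and 1 higher (2 higher without D18 replicate 3). Sox10, of neural crest and the melanocyte lineage, did not pass: it was at 26.4, 31.6 and 25.1 CPM at D18 and 35.9, 41 and 21.7 CPM at D32.

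**Figure D5:**
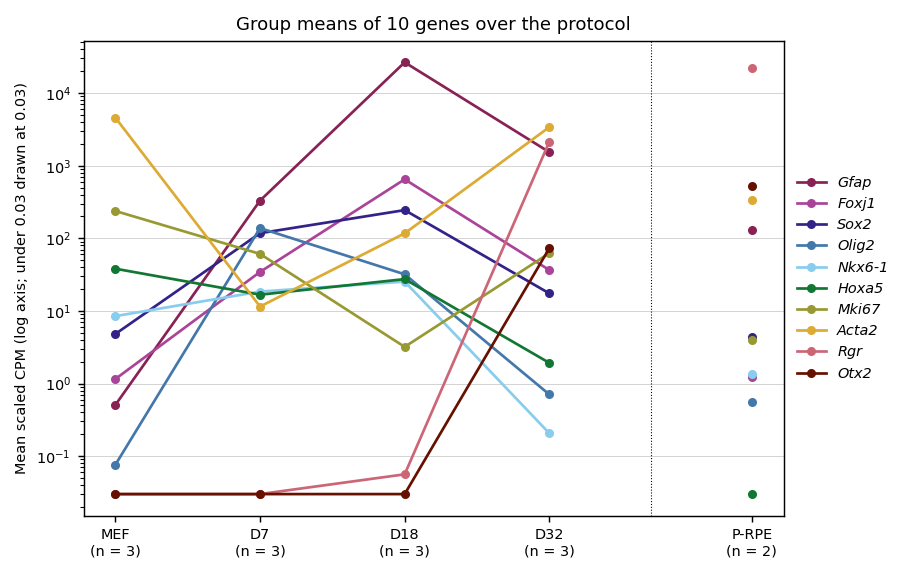
Group mean of 10 genes in scaled CPM (log axis, values under 0.03 drawn at 0.03) in MEF, D7, D18 and D32 (n = 3 each, joined by lines) and in P-RPE (n = 2, separate points). Gfap, Sox2, Foxj1 and Nkx6-1 fell between D18 and D32 while Rgr and Otx2 rose from near the bottom of the axis, and Acta2 and Mki67, high in MEF, rose again from their D18 level.

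The M3 medium holds Activin A, a ligand that signals through SMAD2 and SMAD3, in place of a TGF-beta receptor blocker. Of 14 TGF-beta and activin response genes tested (of 15), 10 were higher, 0 lower and 4 did not pass (median log2 change 2.20), and their sum went from 833 to 2007 CPM at D18 to 5360 to 7388 CPM at D32. Tgfb1, a founding ligand of the family, was at 6.43, 12.11 and 4.99 CPM at D18 and 67.8, 81.7 and 61.7 CPM at D32, a log2 change of 3.16 ± 0.31 (SE; edgeR adjusted p = 4.40e-05). The feedback genes Pmepa1 and Skil rose by 2.61 and 1.98 and the activin subunit gene Inhba by 2.18, while Tgfb2 did not pass. Contractile and SRF target genes rose with them: 15 of 16 were higher and 0 lower (median 1.91), with 1 called lower when D32 replicate 2 was left out. Acta2, smooth muscle actin, was at 108, 122 and 121 CPM at D18 and 3159, 4687 and 2368 CPM at D32, a log2 change of 4.86 ± 0.29 (SE; edgeR adjusted p = 1.41e-06). Actg2, the enteric smooth muscle actin, was at 0.0562, 0.320 and 0.627 CPM and 284, 537 and 214 CPM (log2 change 10.00, and 10.79 without D18 replicate 3). D32 replicate 2 was the highest library for 12 of the 15. Acta2 at D32 was at 1007% of its P-RPE mean, and its MEF mean was 4590.1 CPM. Srf itself did not pass (edgeR adjusted p = 0.547).

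Retinoic acid was added in M3, and M7 had a supplement lacking vitamin A. Of 14 retinoic acid response genes tested (of 16), 7 were higher, 3 lower and 4 did not pass (median 0.61, and 0.99 without D18 replicate 2). Cyp26a1, the retinoic acid hydroxylase that its substrate induces, was at 0.0562, 0.427 and 0 CPM at D18 and 5.71, 7.89 and 5.71 CPM at D32 (log2 change 5.26, and 7.67 without D18 replicate 2). Dhrs3, which returns retinal to retinol, was at 10.8, 9.18 and 12.4 CPM and 69.7, 63.6 and 55.8 CPM, a log2 change of 2.55 ± 0.17 (SE; edgeR adjusted p = 2.19e-06), and the receptor Rarb rose by 1.39. Both Cyp26a1 and Dhrs3 were higher in all 3 D32 libraries than in any D18 library. Rara did not pass (edgeR adjusted p = 0.882).

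BMP response genes split by kind. M3 holds no BMP receptor blocker, and of 13 such genes tested, 5 were higher, 2 lower and 6 did not pass (median 0.44). The inhibitory SMADs Smad6 and Smad7 rose by 2.06 and 2.32, and Gata2 and Gata3 by 2.28 and 3.11. The direct targets Id1 and Id3 did not pass (edgeR adjusted p = 0.802 and 0.357), and Id4, an Id gene of neural progenitors, was at 294, 154 and 239 CPM at D18 and 42.0, 17.4 and 27.4 CPM at D32.

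Targets of the Wnt, Hedgehog and FGF pathways, on which agents of M7 act, moved in both directions within each list. Of 15 Wnt targets and feedback genes tested, 4 were higher, 3 lower and 8 did not pass (median 0.07), where M7 held a GSK3 inhibitor that activates Wnt signaling. Axin2, its feedback gene in most tissues, was at 36.2, 33.9 and 50.2 CPM at D18 and 15.8, 11.2 and 15.7 CPM at D32, a log2 change of -1.49 ± 0.21 (SE; edgeR adjusted p = 0.000221), and its mean at D7 was 144 CPM. Nkd2, another antagonist, ran the other way, at 13.9, 24.7 and 12.08 CPM and 376, 475 and 224 CPM. The Wnt list, which includes Nkd2, summed to 364 to 435 CPM at D18 and 567 to 930 CPM at D32. Of 7 Hedgehog targets, 1 was higher, 3 lower and 3 did not pass (median -0.34). That median was 0.38 without D18 replicate 2 and -0.71 without D18 replicate 3. Ptch1, the receptor and feedback gene, was at 88.6, 134 and 75.3 CPM and 56.4, 52.9 and 44.0 CPM (log2 change -0.96), and Gli1 did not pass, at 9.27, 21.1 and 4.96 CPM and 8.16, 10.8 and 8.84 CPM after a mean of 148 CPM at D7. Hhip, a Hedgehog-binding antagonist, rose by 2.62. Without D32 replicate 1, 2 Hedgehog targets were called higher. Of 13 FGF feedback genes, 4 were higher and 2 lower, and the 2 lower calls dropped to 0 without D18 replicate 2, D32 replicate 2 or D32 replicate 3. Dusp6, which dephosphorylates ERK, rose by 1.40 ± 0.24 (log2, SE).

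Of 20 NF-kappaB targets tested, 3 were higher, 4 lower and 13 did not pass. Without D18 replicate 1, 5 were higher, and without D18 replicate 3, 8 were lower. Lcn2, a siderophore-binding protein of reactive glia, was at 3180.0, 5986 and 3295 CPM at D18 and 405, 474 and 408 CPM at D32, a log2 change of -3.27 ± 0.28 (SE; edgeR adjusted p = 1.17e-05), and the inhibitor Nfkbia, a feedback target, changed by -0.77. Genes of NAD metabolism, which draws on nicotinamide, an addition of M3, gave 0 higher, 5 lower and 9 not called of 14. Nampt, which turns nicotinamide toward NAD, did not pass, and Cd38, which consumes NAD, fell by 2.27. DNA methylation enzymes, whose inhibitor RG108 was in M7, were mostly without a call (2 higher, 0 lower, 6 not called of 8, with 1 higher when D18 replicate 1, D32 replicate 1 or D32 replicate 3 was left out). Uhrf1, which guides Dnmt1 and rises in dividing cells, was one of the 2 and rose by 1.53, and Dnmt1 did not pass. Of 14 fatty acid and lipid storage genes, 7 were lower and 2 higher, with 1 higher when any 1 library other than D32 replicate 2 was left out. Plin2, the coat protein of lipid droplets, was at 589, 716 and 747 CPM and 137, 143 and 92.0 CPM, a log2 change of -2.46 ± 0.21 (SE; edgeR adjusted p = 1.00e-05).

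Genes of the mesenchyme around the eye rose to levels above P-RPE. Of 12 periocular mesenchyme factors, 10 were higher, 0 lower and 2 did not pass (median 4.54), and their sum went from 45.1 to 59.1 CPM at D18 to 741 to 1138 CPM at D32, against 272 to 339 CPM in P-RPE and 203 to 219 CPM in MEF. Eya2, a phosphatase and transcriptional cofactor, was at 0.393, 0.453 and 0.798 CPM at D18 and 64.2, 122 and 103 CPM at D32, a log2 change of 7.45 ± 0.35 (SE; edgeR adjusted p = 4.83e-07), and Lmx1b, of the anterior segment and limb, at 1.57, 1.31 and 0.798 CPM and 65.2, 95.4 and 87.5 CPM. For both genes D32 replicate 1 was the lowest D32 library, where the visual cycle genes had their highest values. Foxc1, mutated in anterior segment disease, was already present: it was at 36.9, 29.1 and 30 CPM at D18 and 109, 149.6 and 139 CPM at D32, a log2 change of 2.05 ± 0.16 (SE; edgeR adjusted p = 7.36e-06). The head mesenchyme factors Alx1 and Alx4 rose by 3.78 and 4.25.

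Myh2, the myosin heavy chain of fast muscle fibers (chr11:67171027-67197517, GRCm38), had no count in any D18 library and was at 1059, 1258 and 487 CPM at D32, at least 33737-fold higher against a floor of 3 counts over the D18 libraries. The means of Myh2 in MEF and P-RPE were 0.132 and 0.220 CPM. Its neighbor Myh1 rose from a mean of 0.167 to 19.8 CPM. Other myosin heavy chains went both ways. Myh7 rose from a mean of 0.0469 to 0.624 CPM, while Myh6 fell from 11.6 to 0.429 CPM and Myh8 from 1.90 to 0.243 CPM. Myogenic regulators did not come with Myh2 and Myh1: Myod1, Myog and Myf5 had too few counts to be tested. Of 7 skeletal muscle markers tested (of 14), 4 were higher and 2 lower, with the muscle filament Des rising by 5.11 and the actin Acta1 by 4.62. The 2 lower calls became 1, with Myh8 losing its call, when D18 replicate 3 or any 1 of the D32 replicates was left out.

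Matrix genes of fibroblasts gave no lower call in the main fit: 9 of 21 were higher, 0 lower and 12 did not pass (median 0.88). By more than 2-fold, 5 of the 21 were higher. With no filter on low counts 3 were higher, and without D18 replicate 3, 7 were called lower. Fn1, fibronectin, was at 1039.5, 899.9 and 445 CPM at D18 and 5402, 8474 and 8209.8 CPM at D32 (log2 change 3.21), the pericyte and fibroblast receptor Pdgfrb rose by 3.44, and Col1a1 did not pass (edgeR adjusted p = 0.0915). Thbs1, thrombospondin 1, was at 435, 258 and 311 CPM at D18 and 8862, 10203 and 8983 CPM at D32. Its libraries did not overlap, and in D32 replicate 2 it was the most counted gene. Of 21 basement membrane genes, 11 were higher, 4 lower and 6 did not pass (median 0.69). Lama1, the laminin chain of early epithelia and the lens capsule, was at 1.01, 1.28 and 0.684 CPM at D18 and 51.4, 73.0 and 45.1 CPM at D32, a log2 change of 5.82 ± 0.29 (SE; edgeR adjusted p = 5.49e-07). Col4a3 and Col4a4, paired chains of specialised basement membranes, rose by 5.17 and 3.27, and the integrin subunit Itgb4 fell by 3.05.

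Dividing-cell genes rose, in every member of the mitosis list. All 23 mitosis genes were called higher (median log2 change 3.42), and their sum went from 59.3 to 85.2 CPM at D18 to 572 to 792 CPM at D32, against 72.6 to 73.3 CPM in P-RPE and 2125 to 2253 CPM in MEF. Mki67, the proliferation marker, was at 3.48, 2.24 and 3.87 CPM at D18 and 75.4, 52.6 and 59.2 CPM at D32, a log2 change of 4.29 ± 0.24 (SE; edgeR adjusted p = 1.05e-06). D32 replicate 1 was the highest library for 20 of the 23. Of 22 replication genes, 17 were higher, 0 lower and 5 did not pass (median 1.22). Rrm2, the ribonucleotide reductase subunit of S phase, was at 6.68, 4.48 and 8.21 CPM and 146, 69.9 and 54.2 CPM, a log2 change of 3.80 ± 0.42 (SE; edgeR adjusted p = 0.000142), and Pcna did not pass. Among 16 cell-cycle kinase (CDK) inhibitors and p53 targets, 4 were higher, 2 lower and 10 did not pass (median 0.13). Without D18 replicate 1, 2 were higher, and without D32 replicate 2, 5 were lower. Cdkn2a, 1 of the 2 called lower, restrains the cell cycle and builds up in cultured fibroblasts. It fell from 149.9, 156 and 123 CPM to 25.1, 47.1 and 26.7 CPM.

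Replicates differed among themselves in few genes. At D18, 407 of 7972 genes with a mean of at least 20 CPM spanned more than 2-fold, and the lowest library was replicate 3 for 244 of them, replicate 2 for 130 and replicate 1 for 33. Reg3g, a secreted lectin of injury responses, was at 160.1, 201 and 3.25 CPM, Mmp3, a stromal protease, at 747, 291 and 53.3 CPM, and Col14a1, a fibril-associated collagen, at 181, 100.3 and 16.8 CPM in D18 replicates 1, 2 and 3. In each of these 3 genes replicate 3 was the lowest. At D32, 164 of 7872 genes spanned more than 2-fold. Besides the Y-linked genes they include the chemokine Cxcl5, at 88.4, 160.1 and 366 CPM, and Tbx20, a factor of heart and motor neurons, at 53.8, 31.0 and 11.5 CPM. These values are given as a description, with no test.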

How the data were processed

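Gene counts of total RNA were deposited by the authors as 1 table with a column per library. They are raw counts, not normalized, and the tools in the submitters' processing notes are featureCounts, STAR 2.7.11a, limma 3.58.1 and edgeR 4.0.16, with the builds mm10 and GRCm38. The strand setting, the treatment of multiply mapped reads and the annotation are not given in the sources used here. The table also has 10 human columns, which were not used.

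Groups and replicates came from the sample titles. The fit used R 4.3.3 with edgeR 4.0.16. TMM (trimmed mean of M values) factors came from all 14 mouse libraries over 20562 genes, and CPM use the scaled library size. Genes passing filterByExpr over the 6 libraries (17899) were tested with the quasi-likelihood test, robust dispersions and Benjamini-Hochberg adjustment, called at an adjusted p under 0.05, and by glmTreat for more than 2-fold. The SE is the log2 change over the square root of F. On simulated counts with 200 changed genes, 75% of 100 2-fold and 99% of 100 4-fold changes were recovered. There were 28 false calls among 17699 unchanged genes. These false calls were a larger share of all simulated calls than the 0.05 threshold aims for. The simulation changed far fewer genes than the 9496 called here, so it does not give the error rate of the main comparison. Folds from 0 use a floor of 3 counts over the group. Floors and 95% intervals cover counting error only. Positions are from GENCODE vM21 (53292 symbols matched).

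Named genes were the 15 largest rises and falls (mean of at least 10 CPM, no overlap), the 3 largest each way and the most abundant member not called in each of 64 lists (949 genes), the 10 largest changes each way of transcription factors, and the 10 widest replicate spreads. Other list members named were chosen after their values were seen. Some genes are not reported here by name, and list counts include them. The members and lists were chosen with earlier results of these data known. Alternatives were other scalings and filters, 1 fit over all 14 libraries, a replicate block, DESeq2 1.42.0, limma-voom and each library left out.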

Additional observations from a re-analysis of the deposited data

How the results depend on the processing

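The counts of genes called higher or lower, at any fold and by more than 2-fold, stayed within 1.5 times of the main counts under every alternative run but one: requiring a mean of at least 5 CPM left 12487 genes tested and 1192 higher by more than 2-fold instead of 2044. Leaving out 1 library in turn gave 4048 to 4797 genes higher and 3851 to 4719 lower, and by more than 2-fold 1783 to 2025 higher and 1818 to 2068 lower. The share of calls that were higher, 51.1%, was 46.8% with RLE size factors and 56.3% with library totals alone, which moved the median gene by -0.07 and 0.09 (log2). DESeq2 called 4987 higher and 4705 lower, and limma-voom 4914 and 4669. Replicate numbers were not shown to pair the libraries: same-numbered D18 and D32 libraries had correlations of their deviations of -0.04, 0.06 and 0.01. With the number as a replicate block 4501 genes were higher and 4373 lower. Of 288 named genes that were called, 249 were called under every alternative that tested them, 39 lost the call under at least 1, and 0 changed direction. Depth limits genes near 0: with 1 to 6 counts at D18 a fitted fold moves with 1 library.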

Other observations

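Several complement and metal-binding genes that were abundant at D18 were lower at D32, while the metal-handling lists moved in both directions. Of 14 complement genes, 6 were lower, 3 higher and 5 did not pass, with a median log2 change of -0.86 (-0.33 without D18 replicate 1), and with no filter on low counts 1 was higher. C3, the central complement protein, was at 13073, 7180.0 and 10401 CPM in the D18 replicates and 974, 1079.8 and 993 CPM in the D32 replicates, a log2 change of -3.33 ± 0.26 (SE; edgeR adjusted p = 7.01e-06). Every D32 library lay below every D18 library. Of 14 NRF2 and metallothionein genes, 6 were higher and 4 lower (median 0.02), and of 9 iron genes, 4 were higher and 3 lower (median 0.04). The metallothionein genes Mt1 and Mt3, which bind zinc and copper, changed by -2.45 and -3.58, and Fth1, the ferritin heavy chain that stores iron, was at 8831, 7894 and 5379.9 CPM and 2044, 2385 and 1879 CPM. Cp, the copper oxidase ceruloplasmin, fell by 2.10 on the log2 scale and the transferrin receptor gene Tfrc, for iron uptake, rose by 1.35. Of 15 immediate early genes, 7 were lower and 1 higher, 11 were lower without D18 replicate 3, and 0 were higher without D18 replicate 3 or D32 replicate 2. Of 18 glycolysis genes, 11 were lower and 2 higher, and 7 were lower without D18 replicate 2 or D32 replicate 3. The 2 higher glycolysis calls became 1 without D18 replicate 2, D18 replicate 3 or D32 replicate 1, and 0 without D32 replicate 2. Slc2a3, the glucose transporter of neurons, fell by 2.77.

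Growth and signaling genes of the embryo changed as well. Of 15 embryonic growth and imprinted genes, 10 were higher, 2 lower and 3 did not pass (median 1.33). Hmga2 and Igf2bp1, expressed in fetal tissues, rose by 4.54 ± 0.35 and 3.66 ± 0.33 (log2, SE). Of 12 Notch pathway genes, 7 were higher, 4 lower and 1 did not pass. The ligand gene Jag1 and the effectors Hes1 and Heyl rose by 3.2, 2.65 and 3.87, and Notch1 and the effector Hey1 changed by -1.92 and -1.83. Of 22 interferon response genes, 12 were higher, 5 lower and 5 did not pass (median 0.82), with 3 lower when D18 replicate 1 or D32 replicate 3 was left out. Of 10 cartilage and bone genes tested (of 15), 4 were higher, 2 lower and 4 did not pass (median 1.51), while single genes of cartilage and inner ear were among the 15 largest falls. Cnmd, chondromodulin, was at 103, 23.2 and 45.2 CPM at D18 and 1.00, 0.686 and 0.861 CPM at D32 (log2 change -6.06, and -5.32 without D18 replicate 1), and Otos, otospiralin of the cochlea, changed by -6.09. Gpr179, a receptor of retinal bipolar cells, was at 146, 107 and 199 CPM and 3.33, 3.01 and 2.90 CPM. The following genes belong to no list and were chosen after their values were seen. Il1rn, which encodes the interleukin-1 receptor antagonist, was at 0.169, 0 and 0 CPM at D18 and 152, 223 and 280.4 CPM at D32, against 1.08 CPM in P-RPE, and Ltf, lactoferrin, at 0.281, 0.107 and 0.399 CPM and 63.9, 63.7 and 61.6 CPM. Col10a1, the collagen of hypertrophic cartilage, was at 0.197, 0.160 and 0 CPM and 99.2, 112 and 70.7 CPM.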
